A study of Homo sapiens with 24 samples.

Results

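The lysosome and autophagy genes CTSA, TPP1, HEXA, ASAH1, CD63 and WIPI1 were followed through 24 RNA-seq libraries of HGC27, an established cell line from a human gastric carcinoma. They are 6 of the 61578 rows of gene names in the count files and were chosen by name, with earlier results of these data known. Each is read under a row of another name, as described below. The libraries form 8 groups of 3 replicates. Parental cells, SGCTRL cells, which the labels give as a control-guide line with wild-type TMEM97, and the TMEM97 knockout lines SG12 and SG21 were each kept for 3 days in high glucose DMEM with FBS or with LPDS. The labels do not spell out these serum names, which are commonly used for serum from fetal cattle and for serum depleted of lipoproteins. All groups share the HGC27 background, and the labels give neither the guides' target sites nor whether SG12 and SG21 are clones or pools. TMEM97, the sigma-2 receptor, is a membrane protein that binds the lysosomal cholesterol transporter NPC1. The design sets each knockout line beside both kinds of control cell, in each medium.

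Lysosomes are acidic organelles in which hydrolases break down protein, glycan and lipid, including the cholesterol esters of lipoproteins that cells take up. Autophagy delivers the cell's own material to them in double-membraned autophagosomes. Many genes of both systems carry a short promoter motif bound by TFEB and related transcription factors, whose core CACGTG is an E-box and whose extended form TCACGTGA is palindromic. CTSA is the carboxypeptidase cathepsin A, which also protects beta-galactosidase and neuraminidase. TPP1 is a tripeptidyl peptidase, HEXA the alpha subunit of beta-hexosaminidase A, which degrades GM2 ganglioside, and ASAH1 acid ceramidase. CD63 is a tetraspanin of late endosomes, lysosomes and exosomes. WIPI1 binds phosphatidylinositol 3-phosphate on forming autophagosomes.

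The sequences that precede the starts of 4 of the 6 genes could be matched in RefSeq (GRCh38.p14) and were searched on both strands over 250 bases before the start that RefSeq gives. That start lies inside the gene span of GENCODE 29 given further on for each of the 4, so these windows reach into those spans. HEXA and ASAH1 are named only. The core motif CACGTG, counted also where it lies inside the longer motif, occurs in 6.34% of 35116 RefSeq promoters of that length and in 22.7% of 132 promoters of lysosome and autophagy genes. The motif TCACGTGA occurs in 0.854% and 9.85% of the same promoters. CTSA has CACGTG at 42 to 37 and at 25 to 20 bases before its RefSeq start, the nearer copy within TCACGTGA at 26 to 19. CD63 has CACGTG at 180 to 175 bases before its RefSeq start. No match was found in these windows of TPP1 and WIPI1. The lines below show 30 bases around the motifs of CTSA (chr20:45891290-45891319, plus strand) and CD63 (chr12:55729172-55729201, minus strand), and for contrast the stretches outside exons of protein-coding genes before TPP1 (chr11:6619486-6619672, minus strand) and WIPI1 (chr17:68457514-68457746, minus strand). The TPP1 stretch lies in an exon of the row ENSG00000255680 on the other strand. Capitals mark the motifs, and every line reads 5′ to 3′ on the strand of its gene.
CTSA: tgtCACGTGgcgccggagtTCACGTGActc
CD63: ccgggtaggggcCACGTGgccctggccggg
TPP1: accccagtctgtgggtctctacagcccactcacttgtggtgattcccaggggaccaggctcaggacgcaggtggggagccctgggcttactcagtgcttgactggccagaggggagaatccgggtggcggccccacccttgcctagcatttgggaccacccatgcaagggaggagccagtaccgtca
WIPI1: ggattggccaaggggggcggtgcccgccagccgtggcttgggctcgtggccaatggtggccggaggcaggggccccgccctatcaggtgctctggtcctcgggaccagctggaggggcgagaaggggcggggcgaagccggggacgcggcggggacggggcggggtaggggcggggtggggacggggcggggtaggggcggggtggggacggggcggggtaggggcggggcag

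The library kit keeps the strand of the RNA, yet most of the counts lie on the strand opposite to the gene a row is named after, so each gene is read where its exons overlap a row on the other strand. Coordinates are of hg38 with GENCODE 29. CTSA (chromosome 20, 45890144 to 45898820) is read under ENSG00000271984, which covers 430 bases of its exons. TPP1 (chromosome 11, 6612763 to 6619485) is read under ENSG00000255680 through 185 bases at its 5′ end. HEXA (chromosome 15, 72340919 to 72376476) is read under ENSG00000261460 through 1273 exon bases, 86.7% of that row's overlap with the other strand, the rest lying on AC009690.1. ASAH1 (chromosome 8, 18055992 to 18084998) is read under ASAH1-AS1 through 251 bases and CD63 (chromosome 12, 55725323 to 55729707) under CD63-AS1 through 237 bases, both at the 5′ end. WIPI1 (chromosome 17, 68420948 to 68457513) is read under ARSG through 828 bases at its 3′ end, 85.2% of the overlap, with SLC16A6 holding the rest. ARSG is itself a lysosomal sulfatase, and where genes overlap the source of a read is not always certain. These overlaps sample from 1.63% (ASAH1) to 24.3% (WIPI1) of a gene's exon bases, so levels are compared between groups and never between genes.

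Libraries held 2.40 to 5.54 M reads on genes, of 44.1 to 102 M uniquely aligned. The reads behind a level ran from 412 to 1480 per library for CTSA, 304 to 917 for TPP1, 913 to 2463 for HEXA and 103 to 660 for WIPI1, but only from 26 to 102 for ASAH1 and 42 to 202 for CD63. The share of ambiguous reads divides the libraries into 8 with 2.10% to 2.24% (the 6 SGCTRL libraries and replicates 2 and 3 of SG21 in LPDS) and 16 with 2.58% to 3.15%. The comparisons of SG12 and SG21 with SGCTRL therefore lie between these sets, apart from those 2 SG21 libraries, while comparisons of SG12 with parental cells and of SG21 with parental cells in FBS lie within 1 set. TMEM97, read through 361 bases of its 3′ end under IFT20, averaged 129.5 ± 12.7 CPM (SD, n = 3) in SGCTRL in FBS, with 52.4 ± 4.06 for SG12 and 75.4 ± 2.96 for SG21, but 161 ± 11.4, 193 ± 16.6 and 123 ± 3.89 in LPDS. RNA at the 3′ end checks nothing about an edit upstream. The labelled epithelial cell type could not be checked either: of 8 epithelial markers 3 have a row on the other strand, none of which exceeded background (CDH1 at most 2.85 CPM), and the row for the leukocyte marker LYZ stayed below 1 CPM.

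Levels are counts per M reads (CPM) on the TMM-scaled library size, and differences are log2 fold changes from edgeR's quasi-likelihood test over all 12822 rows kept, with a Benjamini-Hochberg adjusted p under 0.05 as the threshold for a change. The p-values measure the spread between these libraries, since nothing in the labels says which step was separate for each replicate.

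The 6 genes did not move as a block. CTSA and WIPI1 were lowest in SG21, TPP1 was highest in SG12, and CD63 was high in SG12 in FBS and low in SG21. The 6 were chosen with earlier results known, so the shares below describe them and are no test against all rows. Against SGCTRL in FBS, 5 of the 6 passed in SG12, 3 higher and 2 lower, where 25.2% of all rows passed. In SG21 3 passed, all lower, where 14.1% of rows passed and 6.72% were lower. In LPDS 4 passed in SG12, 1 higher and 3 lower (background 10.9%), and 5 in SG21, all lower (background 10.7%, or 5.39% lower). The median log2 fold change of the 6 was 0.29 and -0.35 for SG12 in FBS and LPDS and -0.48 and -0.59 for SG21, beside -0.03, -0.01, -0.01 and 0.01 over all rows. In bulk RNA, fewer cells that express a gene and less of its RNA per cell cannot be told apart.

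Against parental cells fewer passed. In FBS 2 were higher in SG12 and 2 lower in SG21, shares near the background of 26.5% and 24.1% (12.8% higher and 13.1% lower). In LPDS 3 passed in SG12, 1 higher and 2 lower (background 9.68%), and 3 in SG21, all lower (background 11.3%, or 5.43% lower). Between SGCTRL and parental cells, 1 of the 6 passed in FBS, higher in SGCTRL (background 18.2%, or 8.06% higher). None passed in LPDS (background 0.842%) by edgeR or DESeq2, and 1 had an unadjusted p under 0.05. The knockout comparisons with SGCTRL and those with parental cells share the knockout libraries and are not independent of each other.

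**Figure D1:**
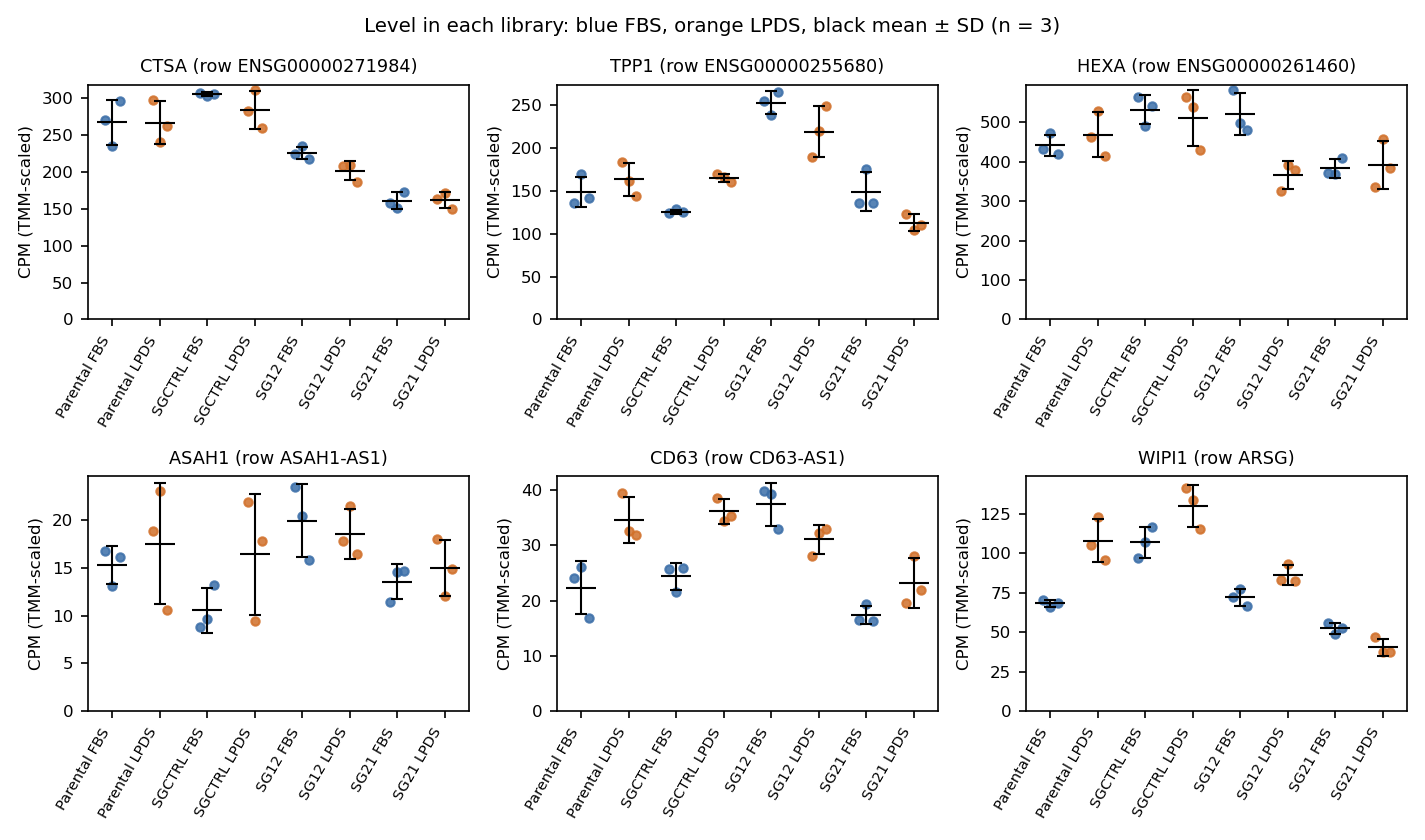
Level of each gene in CPM (vertical axis, from 0) in every library of the 8 groups (horizontal axis), blue for FBS and orange for LPDS, with the black bar at the mean ± SD (n = 3). CTSA steps down from SGCTRL and parental cells to SG12 and then SG21, TPP1 is highest in SG12, and WIPI1 is lowest in SG21 in LPDS at 37.2 to 46.7 CPM.

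CTSA, the protective carboxypeptidase, was lower in SG21 than in both controls in both media. In FBS its levels were 158, 151 and 173 CPM in SG21, against 307, 302 and 305 in SGCTRL and 269, 235 and 296 in parental cells. In LPDS they were 163, 172 and 150 in SG21, against 282, 310 and 259 in SGCTRL and 297, 240 and 262 in parental cells. Every SG21 library lay below every control library. The log2 fold change against SGCTRL was -0.92 ± 0.11 (SE, edgeR adjusted p = 9.68e-08) in FBS and -0.81 ± 0.11 (adjusted p = 1.76e-06) in LPDS. Against parental cells it was -0.73 ± 0.11 (adjusted p = 4.85e-06) and -0.72 ± 0.11 (adjusted p = 1.35e-05). These 4 calls held under every alternative tried. Within the libraries of low ambiguous share, the LPDS difference from SGCTRL was -0.82.

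In SG12 CTSA lay between SG21 and the controls. Its levels were 225, 234 and 217 CPM in FBS and 208, 209 and 186 in LPDS, and no SG12 library overlapped SGCTRL, parental or SG21 libraries of the same medium. Against SGCTRL it was lower, at -0.44 ± 0.11 in FBS (adjusted p = 0.00225) and -0.49 ± 0.11 in LPDS (adjusted p = 0.00157). With a term for the ambiguous-share set these were -0.45 (adjusted p = 0.17) and -0.51 (adjusted p = 0.218) and no longer passed. Against parental cells it passed in LPDS (-0.40 ± 0.11, adjusted p = 0.0136) and not in FBS (-0.24 ± 0.11, adjusted p = 0.0941). The LPDS call was lost without parental replicate 1 (-0.30, adjusted p = 0.118) or SG12 replicate 3 (-0.35, adjusted p = 0.0744). The leaked share is the share of reads on genes that fall in protein-coding rows with no gene on the other strand. It is a partial measure of leakage between strands. With it as a covariate, the LPDS differences were -0.25 (adjusted p = 0.27) from SGCTRL and -0.30 (adjusted p = 0.0558) from parental cells, and the FBS difference from parental cells passed at -0.49 (adjusted p = 0.00873). SG12 exceeded SG21 by 0.49 ± 0.11 in FBS (adjusted p = 0.000699) and 0.32 ± 0.11 in LPDS (adjusted p = 0.0391). The LPDS call was lost without SG12 replicate 1 (adjusted p = 0.0912), SG12 replicate 2 (adjusted p = 0.0884) or SG21 replicate 3 (adjusted p = 0.0975). It was also lost with no count filter (adjusted p = 0.0743) or a filter of 1 CPM in 3 libraries (adjusted p = 0.0503). The spread of the compared groups alone gave an adjusted p of 0.0576, and the term for the ambiguous-share set 0.30 (adjusted p = 0.252). With SG21 replicate 1 alone the difference was 0.31. The order of group means ran from 305 CPM (SGCTRL in FBS) to 161 (SG21 in FBS), a 1.90-fold range. The response of CTSA to LPDS was -0.16 for SG12, -0.11 for SGCTRL, 0.00 for parental cells and 0.01 for SG21, and no line passed the threshold.

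TPP1, the tripeptidyl peptidase, was higher in SG12 than in SG21 in both media, and in LPDS alone these lines lay on opposite sides of the controls. In SG12 its levels were 255, 239 and 265 CPM in FBS and 190, 220 and 249 in LPDS. In SG21 they were 136, 175 and 136 in FBS and 124, 104 and 111 in LPDS. SGCTRL had 124, 129 and 125 CPM in FBS and 170, 166 and 160 in LPDS, and parental cells 136, 169 and 142 in FBS and 184, 162 and 145 in LPDS. Every SG12 library lay above every library of the other lines in the same medium, and in LPDS every SG21 library lay below all others.

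SG12 exceeded SGCTRL by 1.01 ± 0.12 (adjusted p = 6.17e-08) and parental cells by 0.76 ± 0.12 (adjusted p = 9.49e-06) in FBS. In LPDS the excess was 0.41 ± 0.12 (adjusted p = 0.0227) and 0.43 ± 0.12 (adjusted p = 0.0208). The FBS calls held under every alternative. The LPDS calls did not: without SG12 replicate 3 they were 0.31 (adjusted p = 0.175) and 0.33 (adjusted p = 0.152), and without SG12 replicate 2 they were 0.43 (adjusted p = 0.052) and 0.44 (adjusted p = 0.0546). The difference from SGCTRL also lost its call without SGCTRL replicate 2 (adjusted p = 0.0786) or 3 (adjusted p = 0.0634), and that from parental cells without parental replicate 2 (adjusted p = 0.0742) or 3 (0.30, adjusted p = 0.176). With the leaked share as a covariate they were 0.24 (adjusted p = 0.425) and 0.35 (adjusted p = 0.0639), and with the term for the ambiguous-share set the first was 0.21 (adjusted p = 0.767). SG21 in FBS was at 0.25 ± 0.12 from SGCTRL (adjusted p = 0.192) and at 0.00 ± 0.12 from parental cells (adjusted p = 0.989). In LPDS it was lower, at -0.55 ± 0.12 from SGCTRL (adjusted p = 0.00212) and -0.53 ± 0.12 from parental cells (adjusted p = 0.00306). With SG21 replicate 1 alone these were -0.42 (adjusted p = 0.195) and -0.40 (adjusted p = 0.225), past the threshold in neither case. The difference between the knockout lines was 0.76 ± 0.12 in FBS (adjusted p = 7.62e-06) and 0.96 ± 0.12 in LPDS (adjusted p = 2.77e-07), and both calls held under every alternative.

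The LPDS response of TPP1 also differed. It was 0.40 ± 0.12 in SGCTRL, 0.13 ± 0.12 in parental cells, -0.20 ± 0.12 in SG12 and -0.41 ± 0.12 in SG21, none past the threshold within a line (adjusted p = 0.087, 0.595, 0.233 and 0.0572). The response of SG12 minus that of SGCTRL was -0.60 ± 0.17 (adjusted p = 0.0199, but 0.0548 with no count filter). For SG21 minus SGCTRL it was -0.80 ± 0.17 (adjusted p = 0.134), which passed with DESeq2 (adjusted p = 0.0111), with a robust estimate of the spread (adjusted p = 0.0467) and without SG21 LPDS replicate 1 (-0.88, adjusted p = 0.00522). Against parental cells the differences were -0.33 ± 0.17 (adjusted p = 0.257) and -0.54 ± 0.17 (adjusted p = 0.121).

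HEXA, the hexosaminidase subunit, fell with LPDS in SG12. Its levels there were 581, 499.9 and 482 CPM in FBS and 327, 393 and 380 in LPDS, with no overlap. The log2 fold change was -0.51 ± 0.12 (adjusted p = 0.00145), and the call held under every alternative. In the other lines the media overlapped: 433, 472 and 419 against 464, 529 and 414 CPM in parental cells, 564, 492 and 541 against 565, 540 and 431 in SGCTRL, and 371, 369 and 411 against 336, 458 and 385 in SG21. Their responses were 0.09, -0.06 and 0.04. The SG12 response differed from that of parental cells by -0.59 ± 0.16 (adjusted p = 0.0182), a call lost without parental LPDS replicate 2 (-0.51, adjusted p = 0.0676) or SG12 FBS replicate 1 (-0.51, adjusted p = 0.068) and with the leaked share as a covariate (-0.43, adjusted p = 0.351). Its difference from the SGCTRL response was -0.45 ± 0.16 (adjusted p = 0.0736).

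In FBS HEXA in SG12 was at -0.03 ± 0.12 from SGCTRL and 0.24 ± 0.12 from parental cells, neither past the threshold. In LPDS it was lower, at -0.48 ± 0.12 (adjusted p = 0.00466) and -0.36 ± 0.12 (adjusted p = 0.0463). SG21 was lower than SGCTRL, at -0.47 ± 0.12 in FBS (adjusted p = 0.00408) and -0.38 ± 0.12 in LPDS (adjusted p = 0.0283), and at -0.20 and -0.25 from parental cells (adjusted p = 0.209 and 0.166). The 3 calls against SGCTRL were lost with a term for the ambiguous-share set, at -0.15 for SG12 in LPDS (adjusted p = 0.822), and -0.15 (adjusted p = 0.842) and -0.28 (adjusted p = 0.166) for SG21. The LPDS calls were also lost without SGCTRL replicate 1, at -0.38 for SG12 (adjusted p = 0.0726) and -0.29 for SG21 (adjusted p = 0.202). That of SG12 was lost without SG12 replicate 1 (-0.39, adjusted p = 0.0696) and with the leaked share as a covariate (-0.37, adjusted p = 0.159), and that of SG21 without SGCTRL replicate 2 (adjusted p = 0.108) or SG21 replicate 1 (-0.28, adjusted p = 0.157) or 3 (adjusted p = 0.0717). The LPDS difference of SG12 from parental cells lost its call in 5 of 6 cases of a library left out, all but parental replicate 3, the smallest value being -0.24 without parental replicate 2 (adjusted p = 0.31). SG12 exceeded SG21 in FBS by 0.44 ± 0.12 (adjusted p = 0.00388), a call kept under every alternative. In LPDS the lines were at -0.10 ± 0.12 from each other (adjusted p = 0.62).

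ASAH1, acid ceramidase, had the fewest reads and passed in 1 of 21 comparisons. Group means ran from 10.6 ± 2.37 CPM (SGCTRL in FBS) to 19.98 ± 3.86 (SG12 in FBS), and each group overlapped the next in that order. In SG12 in FBS the libraries had 23.6, 20.5 and 15.9 CPM and in SGCTRL 8.78, 9.69 and 13.3, a difference of 0.91 ± 0.29 (adjusted p = 0.0191). Without SGCTRL replicate 1 it was 0.89 (adjusted p = 0.0577) and without SG12 replicate 1 it was 0.80 (adjusted p = 0.0867). With the term for the ambiguous-share set it was 0.49 (adjusted p = 0.663). Against parental cells, at 16.8, 13.1 and 16.1 CPM, the difference was 0.39 ± 0.28 (adjusted p = 0.336).

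CD63, the tetraspanin, was high in SG12 in FBS. Its levels there were 39.9, 39.4 and 33.0 CPM, against 25.7, 21.6 and 25.9 in SGCTRL, 24.02, 26.2 and 16.9 in parental cells and 16.5, 19.3 and 16.3 in SG21. No SG12 library overlapped the others. SG12 exceeded SGCTRL by 0.62 ± 0.19 (adjusted p = 0.0144, but 0.0504 without SG12 replicate 1), parental cells by 0.73 ± 0.19 (adjusted p = 0.00416) and SG21 by 1.11 ± 0.20 (adjusted p = 3.47e-05). With the term for the ambiguous-share set the first was 0.99 (adjusted p = 0.102), and with the leaked share as a covariate the second was 0.67 (adjusted p = 0.102). The difference from SG21 held under every alternative. With LPDS the levels were 28.1, 32.2 and 32.9 CPM in SG12, 38.6, 34.5 and 35.3 in SGCTRL, 39.5, 32.5 and 31.8 in parental cells and 19.5, 28.1 and 21.8 in SG21. SG21 was then below SGCTRL, at -0.63 ± 0.19 (adjusted p = 0.0254), and at -0.56 ± 0.19 from parental cells (adjusted p = 0.0519). The call was lost within the libraries of low ambiguous share, that is without SG21 replicate 1 (-0.53, adjusted p = 0.125), and without SGCTRL replicate 1 (adjusted p = 0.103) or 3 (adjusted p = 0.0684) or SG21 replicate 3 (adjusted p = 0.0855).

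In LPDS all 3 libraries had more CD63 RNA than all 3 in FBS in parental, SGCTRL and SG21 cells, with log2 fold changes of 0.61 ± 0.19, 0.56 ± 0.19 and 0.42 ± 0.20, and all 3 had less in SG12, at -0.27 ± 0.19. None of these passed within a line (adjusted p = 0.0593, 0.118, 0.278 and 0.32). The SG12 response differed from that of SGCTRL by -0.84 ± 0.27 (adjusted p = 0.0385) and from that of parental cells by -0.88 ± 0.27 (adjusted p = 0.0345). Both calls were lost without SG12 replicate 1 or 2 of either medium. The first was also lost without SGCTRL FBS replicate 2 or LPDS replicate 1 or 3, and the second without parental FBS replicate 3 or LPDS replicate 1. The adjusted p-values then rose to at most 0.0892 and 0.114. With the leaked share as a covariate they were 0.078 and 0.3. With no count filter both were 0.138, and with a filter of 1 CPM in 3 libraries they were 0.0621 and 0.062. The SG21 response was at -0.14 ± 0.28 and -0.19 ± 0.28 from the same controls.

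WIPI1, the autophagosome factor, was lowest in SG21, and most so in LPDS. There its levels were 46.7, 37.2 and 37.5 CPM, against 142, 134 and 115 in SGCTRL, 106, 123 and 95.7 in parental cells and 83.1, 93.3 and 82.3 in SG12. In FBS they were 55.8, 49.0 and 52.5 in SG21, against 97.2, 107 and 117 in SGCTRL, 70.4, 65.7 and 68.5 in parental cells and 72.4, 77.5 and 66.4 in SG12. Every SG21 library lay below every library of the other lines in both media. The log2 fold change in LPDS was -1.69 ± 0.14 against SGCTRL (adjusted p = 2.29e-11), -1.42 ± 0.14 against parental cells (adjusted p = 1.95e-09), and SG12 exceeded SG21 by 1.09 ± 0.14 (adjusted p = 2.29e-07). Within the libraries of low ambiguous share the difference from SGCTRL was -1.80 (adjusted p = 5.82e-11), and within those of high share, with SG21 replicate 1 alone, the difference from parental cells was -1.21 (adjusted p = 0.00013).

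In FBS WIPI1 in SG21 was below SGCTRL, at -1.03 ± 0.13 (adjusted p = 6.77e-07), a call kept under every alternative. Its difference from parental cells, -0.38 ± 0.14 (adjusted p = 0.0389), needed all 6 libraries: leaving out any 1 of them gave adjusted p-values of 0.0512 to 0.0844. The control lines themselves differed in FBS, SGCTRL above parental cells by 0.65 ± 0.13 (adjusted p = 0.000695). SG12 in FBS was below SGCTRL, at -0.57 ± 0.13 (adjusted p = 0.00129), and at 0.08 ± 0.14 from parental cells (adjusted p = 0.704). In LPDS SG12 was below SGCTRL, at -0.59 ± 0.13 (adjusted p = 0.00176, but -0.42 and adjusted p = 0.147 with the leaked share as a covariate), and at -0.33 ± 0.13 from parental cells (adjusted p = 0.11).

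**Figure D2:**
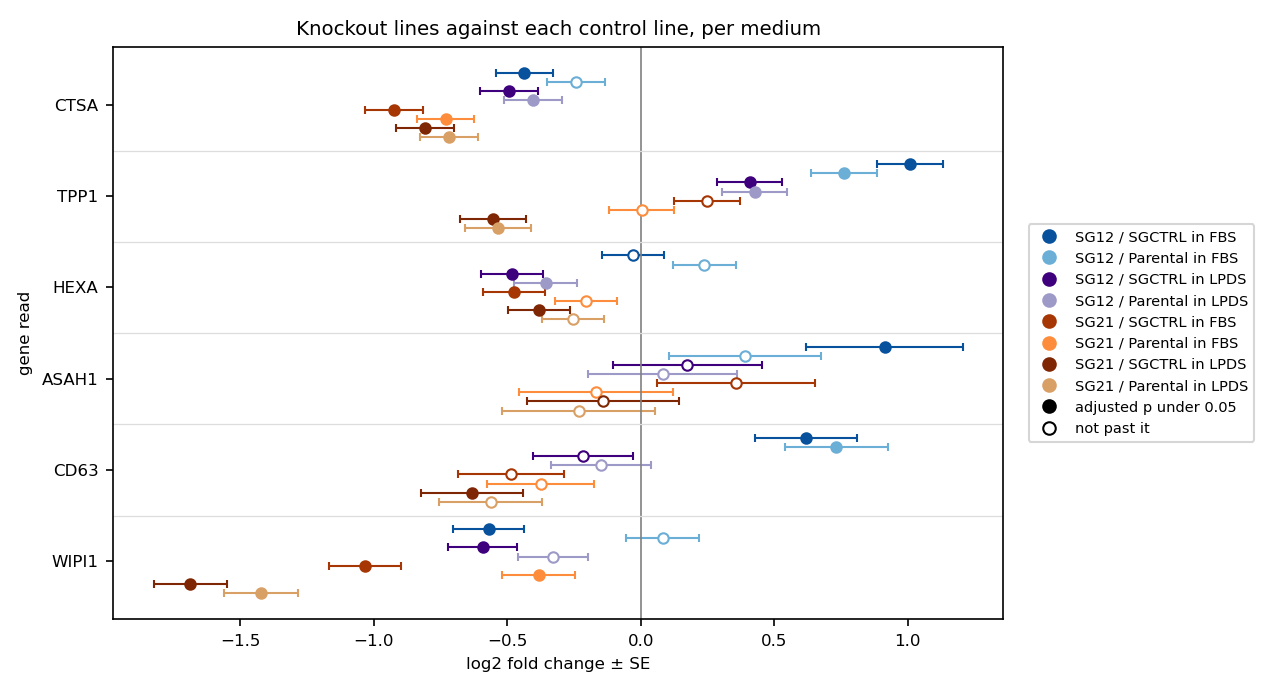
Log2 fold change ± SE (horizontal axis) of each gene (vertical axis) in SG12 (blue and purple) and SG21 (orange and brown) against each control line in each medium, with filled points past an adjusted p of 0.05. All 8 CTSA points lie left of 0, the 4 TPP1 points of SG12 lie right of it, and WIPI1 in SG21 in LPDS reaches -1.69.

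WIPI1 was also the member that rose with LPDS in parental cells. The rise was 0.67 ± 0.13 (adjusted p = 0.00217), with no overlap between media, and it was the 1 of 6 past the threshold in that line (background 4.67%, or 2.18% higher). The leaked share was 3.79% to 4.56% in parental cells in FBS and 3.47% to 3.65% in LPDS. With that share as a covariate the rise was 0.50 (adjusted p = 0.21) and the difference between SGCTRL and parental cells in FBS 0.42 (adjusted p = 0.336). The response of WIPI1 was 0.28 ± 0.13 in SGCTRL, 0.26 ± 0.13 in SG12 and -0.38 ± 0.14 in SG21, none past the threshold (adjusted p = 0.314, 0.174 and 0.145). The SG21 response differed from that of parental cells by -1.04 ± 0.19 (adjusted p = 0.00723), and with SG21 LPDS replicate 1 alone by -0.84 (adjusted p = 0.188). Its difference from the SGCTRL response was -0.65 ± 0.19 (adjusted p = 0.331), and without SG21 LPDS replicate 1 it passed at -0.78 (adjusted p = 0.0259).

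Counted over the 6 genes, LPDS changed 1 in SG12 (HEXA, lower), where 22.5% of all rows changed and 10.9% were lower. None passed in SGCTRL (background 2.25%) or in SG21 (background 3.76%) by edgeR, while 4 and 3 had an unadjusted p under 0.05 and DESeq2 called 0 and 1 (TPP1 in SG21). The response of SG12 differed from that of SGCTRL for 2 genes, TPP1 and CD63 (background 10.4%, or 5.31% lower), and from that of parental cells for 2, HEXA and CD63 (background 8.03%, or 4.79% lower), all towards lower levels. The response of SG21 differed from that of parental cells for WIPI1 (background 0.835%, or 0.562% lower). From that of SGCTRL it differed for none of the 6 and none of all rows (0.00%) by edgeR, where 2 members and 1069 rows had an unadjusted p under 0.05 and DESeq2 called 1 member and 32 rows. SGCTRL and parental cells differed in response for none of the 6 (background 0.0546%), with 1 at an unadjusted p under 0.05 and 0 by DESeq2.

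**Figure D3:**
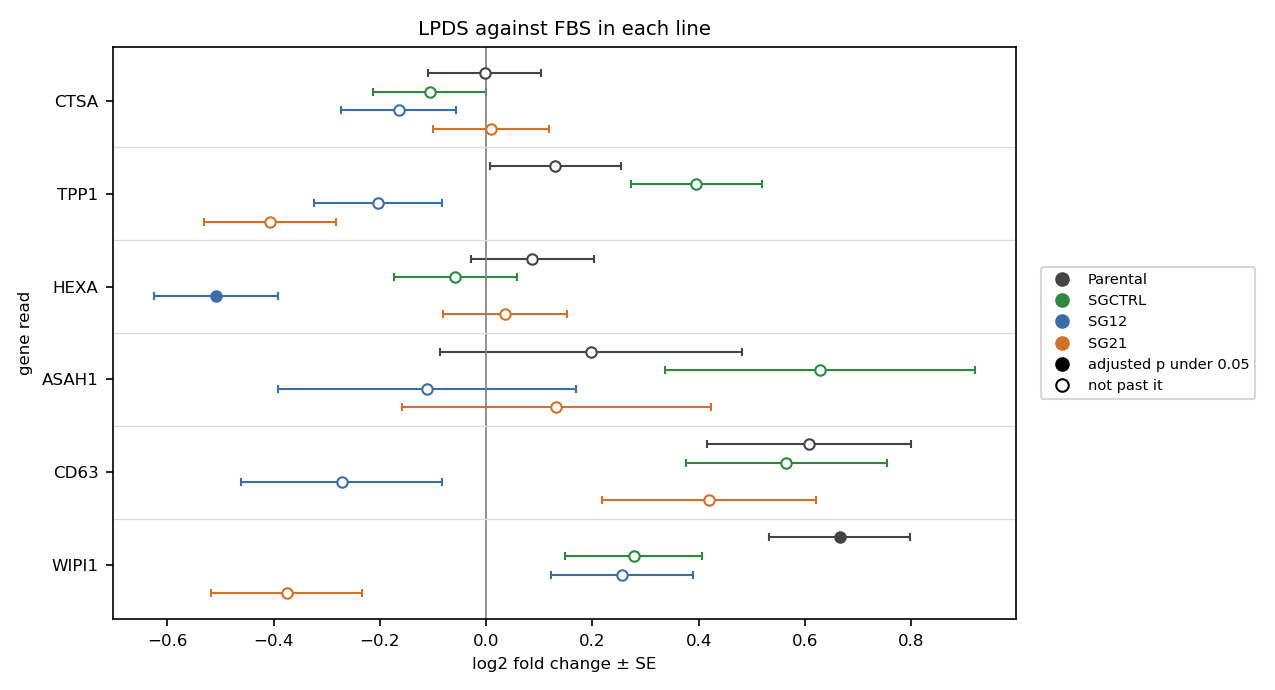
Log2 fold change ± SE of LPDS against FBS (horizontal axis) for each gene (vertical axis) in the 4 lines, with filled points past an adjusted p of 0.05. HEXA in SG12 (-0.51) and WIPI1 in parental cells (0.67) are the filled points, and the CD63 point of SG12 lies on the other side of 0 from the other lines.

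Between the knockout lines, 5 of the 6 genes had more RNA in SG12 than in SG21 in FBS (CTSA, TPP1, HEXA, CD63 and WIPI1), where 27.5% of rows passed and 13.1% were higher. ASAH1 was at 0.56 ± 0.28 (adjusted p = 0.147). In LPDS 3 were higher in SG12 (CTSA, TPP1 and WIPI1), where 18.3% of rows passed and 8.75% were higher. Of these calls, that of CTSA was lost under several alternatives, as given above. The WIPI1 difference in FBS, 0.46 ± 0.14 (adjusted p = 0.01), had an adjusted p of 0.0519 with no count filter. The median over the 6 was 0.52 in FBS and 0.36 in LPDS, beside -0.02 and -0.01 over all rows.

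A wider list of 169 lysosome and autophagy genes, also chosen with earlier results known, gives the surroundings of the 6. Of these, 40 could be read on the other strand and were tested, the 6 included. SG12 exceeded parental cells in FBS for 12 of the 40 and was lower for 3 (background 26.5%, or 12.8% higher), with a median of 0.16 beside -0.09 over all rows. In LPDS 1 was higher and 6 lower (background 9.68%), with a median of -0.05. SG21 was higher for 2 and lower for 2 in FBS (background 24.1%), and higher for 1 and lower for 6 in LPDS (background 11.3%), with medians of -0.10 and -0.09. The control lines differed from each other for 9 of the 40 in FBS (background 18.2%). These 9 were 0 with the leaked share as a covariate and 2 with the term for the ambiguous-share set. In LPDS 0 passed between them by edgeR or DESeq2 (background 0.842%), and 3 had an unadjusted p under 0.05. Against SGCTRL, SG12 had 10 higher and 5 lower in FBS (background 25.2%) and 2 and 8 in LPDS (background 10.9%). SG21 had 1 higher and 7 lower than SGCTRL in FBS (background 14.1%) and 0 and 9 in LPDS (background 10.7%, or 5.39% lower). LPDS raised 4 in parental cells (background 4.67%, or 2.18% higher), and raised 4 and lowered 8 in SG12 (background 22.5%). It changed 0 of the 40 in SGCTRL (background 2.25%) and SG21 (background 3.76%) by edgeR, where 10 and 12 had an unadjusted p under 0.05 and DESeq2 called 1 and 4. With the spread of the compared groups alone 5 passed in SGCTRL, and with the leaked share as a covariate 2 in SGCTRL and 1 in SG21. With the term for the ambiguous-share set the counts against SGCTRL were 4 and 2 for SG12 in FBS and LPDS and 3 for SG21 in FBS, and with SG21 replicate 1 alone 3 for SG21 in LPDS. The 7 for SG21 against parental cells in LPDS were 2 with that term, 2 with SG21 replicate 1 alone and 4 with no count filter. With the leaked share as a covariate they were 8 and 3 for SG12 against parental cells in FBS and LPDS, 2 for SG21 against parental cells in FBS, 3 for SG12 against SGCTRL in LPDS and 0 for LPDS in parental cells.

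Single libraries also moved these counts. The 4 for LPDS in parental cells were 1 without FBS replicate 2 and 2 without LPDS replicate 1 or 3. The 0 for LPDS in SG21 became 1 without FBS replicate 2 and 3 without LPDS replicate 1. Against SGCTRL, the 10 for SG12 in LPDS were 6 without SGCTRL replicate 1, the 8 for SG21 in FBS were 4 or 5 without SGCTRL replicate 2 or 3 and 5 without SG21 replicate 2, and the 9 for SG21 in LPDS were 5 without SGCTRL replicate 1 or SG21 replicate 3. Against parental cells, the 7 for SG12 in LPDS were 1 to 4 without any library but parental replicate 3, the 4 for SG21 in FBS were 2 without SG21 replicate 3, and the 7 for SG21 in LPDS were 4 without parental replicate 1 or 2 or SG21 replicate 3. The 9 for SGCTRL against parental cells in FBS were 2 to 5 without any library but parental replicate 1.

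Among the other hydrolases, ACP2 (row NR1H3), lysosomal acid phosphatase, averaged 114 ± 7.30 CPM in FBS in SG12, 75.6 ± 6.42 in SG21 and 51.1 ± 7.30 in SGCTRL. It exceeded SGCTRL in FBS by 1.16 ± 0.15 for SG12 (adjusted p = 2.57e-07) and by 0.57 ± 0.15 for SG21 (adjusted p = 0.00929), the latter lost without SGCTRL replicate 2 or 3 or SG21 replicate 2 (adjusted p = 0.0727, 0.0548 and 0.0745) and at -0.05 with the term for the ambiguous-share set (adjusted p = 0.967). With that term the SG12 difference was 0.55 (adjusted p = 0.19) and no longer passed. PLA2G15 (ENSG00000260441), a lysosomal phospholipase, was lower in SG12 than in SGCTRL in FBS, with a log2 fold change of -1.07 ± 0.19, at 23.8 ± 5.08 against 49.6 ± 2.64 CPM. With the term for the ambiguous-share set it was -0.74 (adjusted p = 0.221). DNASE2 (ENSG00000267735), the acid nuclease, was lower in SG12 in LPDS, at -0.43 ± 0.11 against SGCTRL and -0.37 ± 0.11 against parental cells. The first was lost without SGCTRL replicate 1 (adjusted p = 0.0788) and the second without any library but parental replicate 3. With the term for the ambiguous-share set the first was -0.58 (adjusted p = 0.118). With the leaked share as a covariate they were -0.35 (adjusted p = 0.148) and -0.34 (adjusted p = 0.0502). Of 10 hydrolases read, CTSA, TPP1, HEXA and ASAH1 included, 4 were higher and 1 lower in SG12 than in parental cells in FBS (background 26.5%, or 12.8% higher), and 1 higher and 3 lower in LPDS (background 9.68%).

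Of 6 membrane and transport genes, NPC1 (RMC1), the cholesterol exporter, was read at 39.8 ± 0.188 CPM in SG21 in FBS and 52.9 ± 9.09 in LPDS, below 69.3 ± 7.05 and 85.4 ± 6.32 in SGCTRL. The differences were -0.80 ± 0.17 (adjusted p = 0.00103) and -0.69 ± 0.17 (adjusted p = 0.00433), and -0.51 ± 0.17 (adjusted p = 0.0437) against parental cells in LPDS, which was lost without parental replicate 1 or 2 or SG21 replicate 2 or 3 (adjusted p = 0.112, 0.085, 0.101 and 0.142). SG21 replicate 1 alone gave LPDS differences of -0.43 from SGCTRL and -0.25 from parental cells. The term for the ambiguous-share set put the latter at -0.25 (adjusted p = 0.615). In FBS SG21 was at -0.29 ± 0.18 from parental cells (adjusted p = 0.243), while SG12 and SGCTRL exceeded them by 0.75 ± 0.17 (adjusted p = 0.00098) and 0.51 ± 0.17 (adjusted p = 0.0326). Without parental replicate 2 the SG21 difference passed, at -0.52 (adjusted p = 0.0277), and that of SGCTRL was 0.28 (adjusted p = 0.313). The SGCTRL call was also lost without SGCTRL replicate 1, 2 or 3 (adjusted p = 0.162, 0.0501 and 0.0921), and with the leaked share as a covariate the differences of SG12 and SGCTRL were 0.45 (adjusted p = 0.176) and 0.11 (adjusted p = 0.901). NPC1 rose with LPDS in parental cells by 0.63 ± 0.17, a call lost without FBS replicate 2 (0.40, adjusted p = 0.269) or LPDS replicate 1 or 3 (adjusted p = 0.0743 and 0.0709). This rise of NPC1 was 0.35 (adjusted p = 0.594) with the leaked share as a covariate. ATP13A2 (ENSG00000226526), a polyamine transporter of the lysosome, was lower in SG12, at -1.27 ± 0.18 from SGCTRL in FBS and -0.81 ± 0.18 in LPDS, and at -1.03 ± 0.18 and -0.68 ± 0.18 from parental cells. The last was lost without parental replicate 2 (adjusted p = 0.0864) or SG12 replicate 3 (adjusted p = 0.0644). With the term for the ambiguous-share set the differences from SGCTRL were -0.89 in FBS (adjusted p = 0.0714) and -0.43 in LPDS (adjusted p = 0.613). CLCN7 (ENSG00000261641), the chloride and proton exchanger, was lower in SG12 in LPDS, at -0.52 ± 0.11 against SGCTRL and -0.38 ± 0.11 against parental cells, the latter lost without any library but parental replicate 3. The former was -0.16 with the term for the ambiguous-share set (adjusted p = 0.797) and no longer passed. Of the enzyme sorting genes, GNPTG (UNKL), which helps tag hydrolases with mannose 6-phosphate, rose with LPDS by 0.71 ± 0.19 in parental cells, a call lost without FBS replicate 2 (0.49, adjusted p = 0.252) or 3 (adjusted p = 0.0761) or LPDS replicate 1 (adjusted p = 0.0809) or 3 (adjusted p = 0.0853), and M6PR (PHC1), a receptor for that tag, by 0.55 ± 0.13 in SG12. The GNPTG rise was 0.31 (adjusted p = 0.686) with the leaked share as a covariate.

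Of 16 autophagy genes, ATG101 (ENSG00000257663), a subunit of the initiating kinase complex, NBR1 (ENSG00000267002), a cargo receptor, and STX17 (ENSG00000254571), which fuses autophagosomes with lysosomes, also fell with LPDS in SG12. Their log2 fold changes were -0.58 ± 0.10, -0.91 ± 0.20 and -0.86 ± 0.15, and their levels in FBS exceeded parental cells by 0.53 ± 0.10, 1.09 ± 0.20 and 1.16 ± 0.15. STX17 averaged 105 ± 5.75 CPM in SG12 in FBS and 57.6 ± 3.20 in LPDS. ATG101 also exceeded SGCTRL in FBS, by 0.65 ± 0.10, and ATG13 (HARBI1), of the same complex, was lower in SG12 than in SGCTRL in LPDS, at -0.56 ± 0.12. With the term for the ambiguous-share set these differences from SGCTRL were 0.47 (adjusted p = 0.127) and -0.22 (adjusted p = 0.737). With the leaked share as a covariate the ATG101 excess over parental cells was 0.32 (adjusted p = 0.107). In SG21 NBR1 was lower than SGCTRL, at -0.69 ± 0.20 in FBS and -0.67 ± 0.21 in LPDS, and STX17 at -0.51 ± 0.15 and -0.47 ± 0.15, and at -0.50 ± 0.15 against parental cells in LPDS. Each of these 5 calls was lost without some single libraries. For NBR1 these were SGCTRL replicates 2 and 3 and SG21 replicates 1 and 2 in FBS, and SGCTRL replicates 1 and 3 and SG21 replicate 2 in LPDS. For STX17 they were SGCTRL replicates 1 and 2 and SG21 replicates 2 and 3 in FBS, any SGCTRL replicate and SG21 replicates 1 and 3 in LPDS, and, against parental cells, parental replicates 1 and 2 and SG21 replicates 1 and 3. The term for the ambiguous-share set put NBR1 in FBS at -0.88 (adjusted p = 0.346). Under that term STX17 was at -0.31 in FBS and -0.41 in LPDS from SGCTRL (adjusted p = 0.744 and 0.143). From parental cells it was at -0.64 (adjusted p = 0.0933). NBR1 in LPDS was at -0.54 from SGCTRL with SG21 replicate 1 alone. GABARAPL1 (GABARAPL1-AS1), an ATG8 family protein, rose with LPDS in parental cells by 1.38 ± 0.30 (lost without FBS replicate 2, adjusted p = 0.0737). This GABARAPL1 rise was 0.83 (adjusted p = 0.385) with the leaked share as a covariate. GABARAPL1 was lower in SG21 in LPDS, at -1.11 ± 0.29 against SGCTRL and -0.91 ± 0.29 against parental cells. The first was lost without SG21 replicate 2 (adjusted p = 0.0558) or 3 (adjusted p = 0.0695), and the second without any library but SG21 replicate 1. SG21 replicate 1 alone gave -0.46 against SGCTRL and -0.26 against parental cells for GABARAPL1. The term for the ambiguous-share set put the difference from parental cells at -0.26 (adjusted p = 0.768). SQSTM1 (MRNIP), the receptor p62, was higher in SG21 than in parental cells by 0.34 ± 0.08 in FBS (0.27 and adjusted p = 0.0572 without SG21 replicate 3) and 0.40 ± 0.08 in LPDS. The FBS difference of SQSTM1 was 0.18 (adjusted p = 0.303) with the leaked share as a covariate. Its LPDS difference was 0.30 with the term for the ambiguous-share set (adjusted p = 0.101) and 0.30 with SG21 replicate 1 alone. Of the nutrient control genes, LAMTOR4 (TRAPPC14), a Ragulator subunit, exceeded parental cells in SG21 in FBS by 0.94 ± 0.25, and MTOR (MTOR-AS1), the growth kinase, was lower in SG12 than in parental cells in LPDS, at -0.67 ± 0.15. The LAMTOR4 difference was 1.04 (adjusted p = 0.058) with the leaked share as a covariate and no longer passed.

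**Figure D4:**
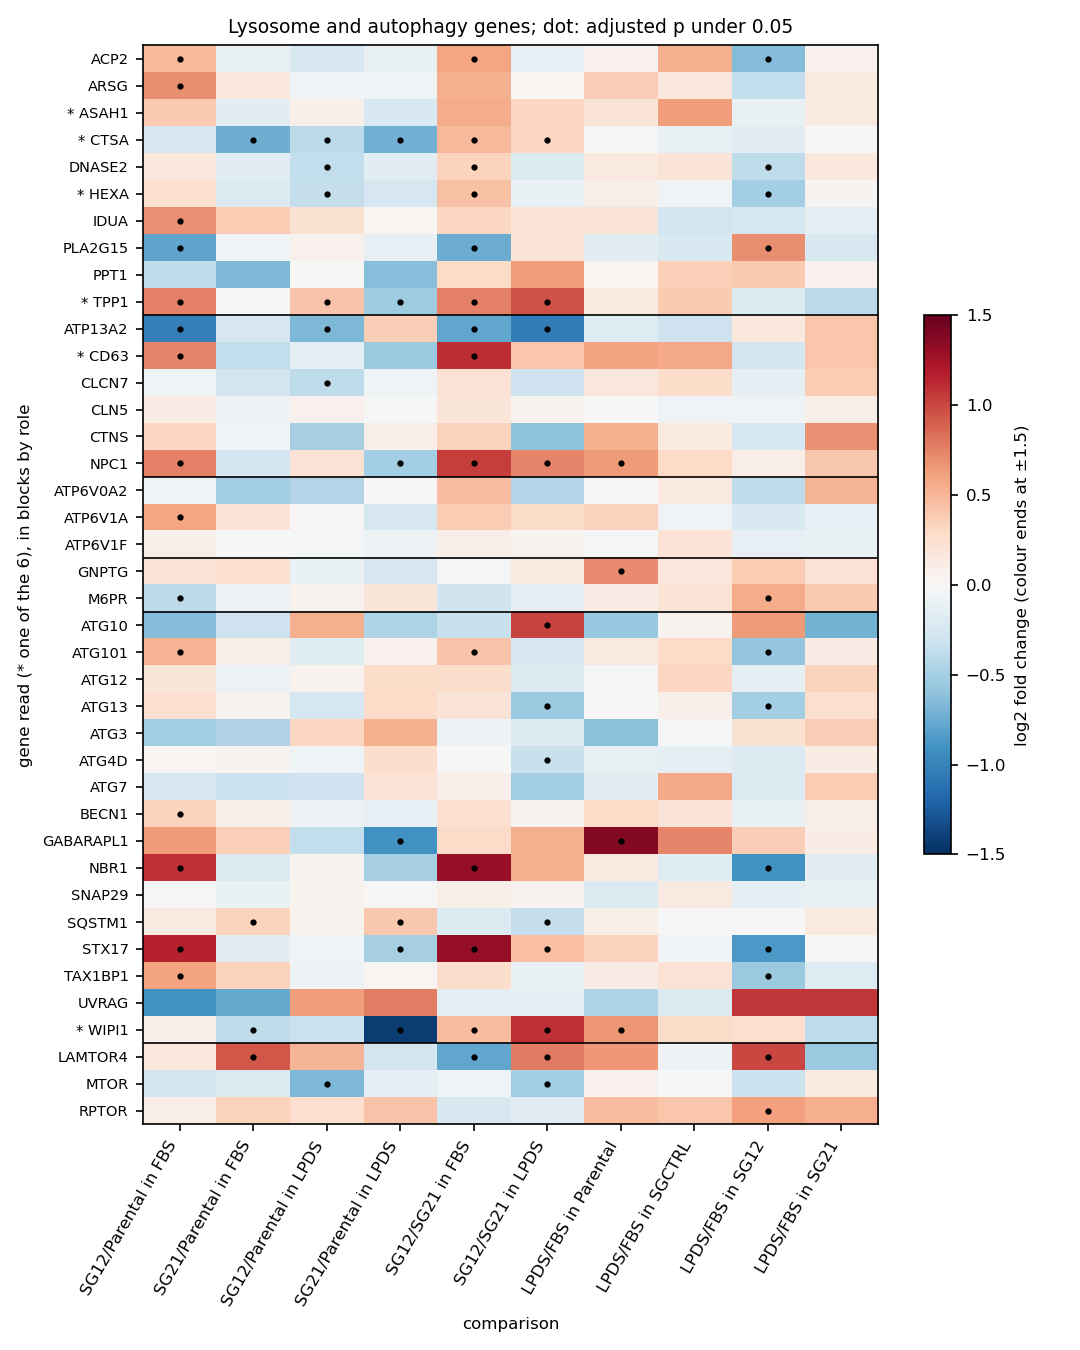
Log2 fold change (colour, ending at ±1.5) of the 40 lysosome and autophagy genes read (vertical axis, in blocks by role, the 6 marked with a star) in 10 comparisons (horizontal axis), with a dot where the adjusted p is under 0.05. Of the dots for SG12 against parental cells in FBS 12 are higher and 3 lower, and the columns for LPDS in SGCTRL and SG21 hold none.

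The genes whose group means followed a member most closely were found by the root mean square distance between log2 CPM means, centred over the 8 groups, among about 2405 rows with a source gene. These are descriptions over 8 group means that share libraries. SMAGP (DAZAP2) and CASC4 (CTDSPL2-DT) were nearest to CTSA, at 0.11 and 0.12. TTLL1 (TTLL1-AS1) and NCSTN (COPA) were nearest to TPP1, both at 0.11. COQ6 (ENTPD5) and PINK1 (PINK1-AS) were nearest to HEXA at 0.06 and 0.07, and BNIP2 (ENSG00000259238) was nearest to ASAH1 at 0.08. NPC1 was among the 2 nearest to CD63, at 0.15. PXDC1 (ENSG00000270504) and ZSWIM8 (ENSG00000272916) were nearest to WIPI1, at 0.21 and 0.22. The median distance over all candidates was 0.31 for HEXA, 0.36 for ASAH1, 0.43 for CTSA, TPP1 and CD63, and 0.59 for WIPI1.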

How the data were processed

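Raw read counts per gene name were deposited by the authors, 1 table per library, and were used as deposited. Per the submitters' processing notes, bcl2fastq, STAR and hg38 were used, with no versions. The counting program, its strand setting and its annotation are not given in the sources used here. Per the labels' protocols, 100 ng of total RNA went into an Illumina stranded kit with ribosomal depletion. Reads on no gene (94.3% to 94.6% of uniquely aligned reads) and ambiguous reads stayed out of library sizes.

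Rows were matched to GENCODE 29 (56717 of 61578 matched). A row is read as the gene on the other strand whose exons share at least 50 bases with it, at least 80% of the bases it shares with that strand, where its mean exceeds 5.73 CPM, the 90th percentile of 9461 protein-coding rows with no gene on the other strand. The test was edgeR 4.0.16 in R 4.3.3: quasi-likelihood F test over all 24 libraries, a mean per group, TMM, filterByExpr (12822 rows kept) and Benjamini-Hochberg adjustment within each of 21 comparisons. An SE is the absolute log2 fold change over the square root of F. The fit was tested on simulated data. The 6 genes and all lists were chosen with earlier results of these data known. The text names the 6 genes, TMEM97, NPC1, up to 4 other called list genes per comparison by adjusted p, and the 2 rows nearest each member, of which some are not reported here. The alternatives were the Wald test of DESeq2 1.42.0, its size factors in edgeR, 2 other count filters, a spread from the compared groups alone, a replicate block, a term for the ambiguous-share set, all aligned reads as library size, the leaked share as a covariate, SG21 in LPDS by replicate 1 alone, and each library left out. A robust estimate of the spread was added after seeing the data. The term for the ambiguous-share set is estimated from the 3 SG21 libraries in LPDS alone.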

Additional observations from a re-analysis of the deposited data

Results flagged for a closer look

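The response to LPDS differed between lines for 5 pairs of gene and comparison, each by edgeR's test of the difference between responses. The response of SG12 minus that of SGCTRL was -0.60 for TPP1 and -0.84 for CD63, both as log2 fold changes. The response of SG12 minus that of parental cells was -0.59 for HEXA and -0.88 for CD63. The response of SG21 minus that of parental cells was -1.04 for WIPI1. Each of these calls was lost under some alternative. No cause was tested for any of them. The comparisons of SG12 share its 6 libraries.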

How the results depend on the processing

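Of 126 pairs of gene and comparison, 43 passed, and none of the 54 that passed in any setting changed sign. In all, 17 calls were kept under every alternative and without any library. Size factors and the Wald test of DESeq2, all aligned reads and the robust spread lost 0 of the 43. The leaked share as a covariate lost 13, the term for the ambiguous-share set 12, no count filter 11, a filter of 1 CPM in 3 libraries, which keeps 20228 rows instead of 12822, 4 and the own spread 3, and 14 were lost without at least 1 library. Causes were not tested. Among the other list genes named, ACP2 in SG21 against SGCTRL in FBS changed sign with the ambiguous-share term (-0.048), and no other did under any setting.

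The number of the 6 genes past the threshold moved as follows. With the leaked share it went from 1 to 0 for LPDS in parental cells and for SGCTRL against parental cells in FBS, from 0 to 1 for LPDS in SGCTRL, from 4 to 0 for SG12 against SGCTRL and from 3 to 0 against parental cells in LPDS, from 2 to 1 for the response of SG12 minus SGCTRL and from 2 to 0 minus parental cells. With the ambiguous-share term it went from 5 to 2 and from 4 to 1 for SG12 against SGCTRL in FBS and LPDS, from 5 to 3 for SG21 against SGCTRL in LPDS and from 1 to 0 for the response of SG21 minus parental cells. With SG21 replicate 1 alone the last 2 were 3 and 0. With no count filter it was 1 for SG12 and 1 for SG21 against parental cells (LPDS and FBS), 0 and 1 for the responses of SG12 minus SGCTRL and minus parental cells, and 1 for SG21 minus SGCTRL. With the 1 CPM filter these responses of SG12 gave 1 each, and SG21 against parental cells in FBS gave 1, as with the own spread. The own spread gave 2 for LPDS in SGCTRL. DESeq2 and the robust spread gave 1 for LPDS in SG21 and 1 for SG21 minus SGCTRL.

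Leaving out single libraries, the count ranged from 1 to 1 for LPDS in parental cells, 0 to 0 in SGCTRL, 1 to 1 in SG12 and 0 to 2 in SG21. It ranged from 3 to 5 and 3 to 3 for SG12 against SGCTRL in FBS and LPDS, 3 to 3 and 3 to 5 for SG21, 2 to 3 and 0 to 3 for SG12 against parental cells, 1 to 1 and 3 to 5 for SG21, 1 to 1 and 0 to 0 for SGCTRL against parental cells, and 5 to 5 and 2 to 3 between the knockout lines. For the responses it ranged from 1 to 3 (SG12 minus SGCTRL), 0 to 2 (SG21 minus SGCTRL), 0 to 2 (SG12 minus parental cells) and 1 to 1 (SG21 minus parental cells).

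Libraries were not treated as paired by replicate number, since no comparison had all 3 same-number correlations over 0.1. Single ones exceeded it, such as 0.196 for replicate 2 of SG21 against parental cells in FBS. This rule therefore cannot show that the libraries were unpaired. With the number as a block 0 of the 43 calls were lost and 0 were gained. ASAH1 and CD63 had the fewest reads.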
